A study of Rattus norvegicus with 4 samples.

Results

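This account concerns the response to a high-fat (HF) diet in control offspring, that is, rats that were not undernourished before birth. It rests on 2 of the 4 arrays of the study: hypothalamic RNA of control offspring fed the HF diet and of control offspring fed a standard diet. Both arrays were described by the size of the log2 difference (HF minus standard) among genes detected in both at a detection p under 0.01. That left 10398 of the 21397 genes on the array, and every statement below on the control offspring refers to these unless it says otherwise.

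Gene expression was read on Illumina bead arrays for the rat; beads coated with a short DNA probe bind the labelled RNA, and the signal of a probe is the average brightness of its beads. All 4 samples were total RNA of the hypothalamus of male Wistar rats aged 4 months. Besides the control offspring, the study held 1 array of FR30 offspring on the standard diet and 1 of FR30 offspring on the HF diet, FR30 being its name for rats undernourished in the womb. No transgene, allele or drug is named for any group. The composition and duration of the diets, body weights, and whether a sample is 1 animal or a pool are not given in the sources used here. With 1 array per group there was no replicate check, no test was made, and a difference between arrays, animals or dissections cannot be told apart from one of diet.

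The hypothalamus reads hormones and nutrients in the blood and sets feeding, energy use, body temperature, stress and reproduction. Neurons of its arcuate nucleus oppose one another: those that make Agrp and Npy promote eating, and those that make Pomc and Cartpt restrain it. The tissue lies against the thalamus above and the pituitary below, borders the third ventricle, and is covered by the meninges, so a dissected piece can carry RNA of each. In rodents, HF feeding is known for altered leptin and insulin signalling and for reactive glia in the arcuate nucleus.

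The 4 arrays were alike in signal and in the number of genes detected. Median non-normalized signals lay between 169 and 190, between 10298 and 10803 genes were detected per array, and the SD that the authors deposited beside each signal had a median of 3.20% to 3.41% of the signal. The sources used here do not say what that SD was taken over. Signals quoted below are the authors' normalized intensities, always in the order control offspring on the standard and the HF diet, then FR30 offspring on the standard and the HF diet; log2 differences come from the background-corrected, quantile-normalized non-normalized intensities. Fewer cells of a type and less RNA per cell cannot be told apart in such tissue samples.

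Most genes had nearly the same signal on both diets. The median log2 difference over the 10398 genes was 0.01, with 5597 genes higher and 4760 lower on the HF diet, and 7417 genes (71.3%) lay within 1.1-fold. From the 5th to the 95th percentile the differences ran from -0.26 to 0.22. At least 1.5-fold separated the arrays for 61 genes (0.587%), of which 15 were higher (0.144%) and 46 lower (0.442%) on the HF diet. Only 3 of the higher and 4 of the lower genes passed 2-fold. Under the authors' own normalization 16 genes passed 1.5-fold, 7 higher and 9 lower, and with no background correction 15 did, 6 higher and 9 lower, so the preponderance of lower genes was smaller under both. Of the 61 genes, 15 passed under each of these settings and all 61 kept their direction.

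Dim probes supplied most of these genes. Among the 2035 genes with a mean signal under 250, 5 were higher and 16 lower by the 1.5-fold rule (1.03%), and among the 2756 with a mean of 250 to 500 the numbers were 3 and 23 (0.943%). Among the 3559 genes of 500 to 2000 they were 4 and 5 (0.253%), and among the 2048 brighter ones 3 and 2 (0.244%). Just inside the threshold lay Nphp4 (0.60) and Fbln1 (-0.59), and just outside it Zfp575 (0.57) and Gabrb2 (-0.58). For 57 of the 61 genes the gap between the deposited control signals was over 2 times the sum of their 2 deposited SDs. A single detected probe stood behind 59 of the 61.

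**Figure D1:**
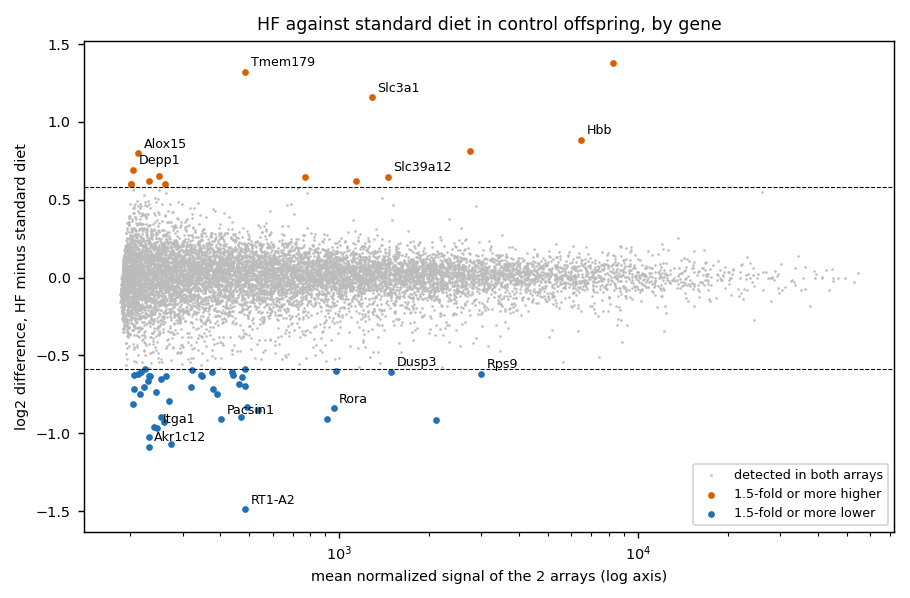
Each point is 1 of the 10398 genes detected in both arrays of control offspring; the horizontal axis is its mean normalized signal (log axis) and the vertical axis its log2 difference, HF minus standard diet. Dashed lines mark 1.5-fold; the 15 orange genes lie above and the 46 blue genes below, most of the latter at signals under 500.

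Among the higher genes were 2 membrane transporters with clear signals. Slc3a1, the heavy subunit of a carrier of cystine and basic amino acids, had signals of 848, 1738, 1445 and 1679 in the order above, a log2 difference of 1.16. The control standard array stood low and the other 3 lay near one another, and the FR30 pair differed by 0.22. Slc39a12, a zinc importer of the ZIP family found mainly in brain, had signals of 1161, 1764, 1264 and 1143 and a difference of 0.65; here the control HF array stood high alone, and the FR30 pair differed by -0.17. The deposited SDs of the 2 control arrays were 19.4 and 88.1 for Slc3a1 and 10.5 and 49.9 for Slc39a12.

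The families of these transporters did not share the differences. Of 30 detected amino acid transporters, 19 were higher and 11 lower, with a median of 0.06, and Slc3a1 alone passed 1.5-fold. The next were Slc7a7, a light chain that pairs with Slc3a2 to carry basic and neutral amino acids (0.39), and Slc7a1, a carrier of basic amino acids (0.25), while the taurine transporter Slc6a6 was at -0.45. Of 30 detected genes of metal transport and binding, 20 were higher and 10 lower, with a median of 0.02. Mt1, the zinc-binding metallothionein 1, had signals of 2260.3, 2863, 2312 and 2165 and a difference of 0.32. Like Slc39a12 it was highest on the control HF array, by a smaller amount. Commd6, of a family of copper and NF-kB regulators, had signals of 276, 207, 328 and 194 and a difference of -0.96; it was low on both HF arrays, and the FR30 pair differed by -1.71. The copper pump Atp7a was at -0.35.

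LOC499823 and Tmem179 headed the higher genes. LOC499823, to which the tables used here give no role, had signals of 4806, 11677, 8167 and 8809.8 and a difference of 1.38; control standard was the lowest array and control HF the highest. Tmem179, a transmembrane protein, had signals of 334, 639, 306 and 347 and a difference of 1.32, with control HF standing apart from the other 3 arrays. Between the FR30 arrays the log2 differences were smaller, at 0.11 for LOC499823 and 0.32 for Tmem179.

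Several of the remaining higher genes were dim. Alox15, a lipoxygenase that oxidizes polyunsaturated fatty acids, had signals of 192, 234, 179 and 270.1 and a difference of 0.80, with both HF arrays above both standard arrays; it was not detected in every FR30 array. Depp1, a target of FOXO factors known from fasting and progesterone responses, had signals of 188, 221, 219 and 206 and a difference of 0.69; the control standard array alone was low. Pkib, an inhibitor of protein kinase A, had signals of 225, 276, 185 and 184 and a difference of 0.66, and it too was not detected in every FR30 array. The amylase gene Amy1 (0.60), the ciliary gene Nphp4 (0.60), C3h20orf96 (0.62) and LOC683249 (0.60) were the others, besides the class I genes described below. Haemoglobin beta, Hbb, was at 0.89 and MGC72973 at 0.81, and each was high on both HF arrays. MGC72973, to which the tables used here give no role, ran beside Hbb in the FR30 pair too, at 0.85 against 0.86. Whether they are separate results was not tested.

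Of the class I histocompatibility genes past 1.5-fold, RT1-A2 was lower on the HF diet while RT1-A1 and RT1-A3 were higher. These genes encode the heavy chains that present peptides to cytotoxic T cells, and they are among the most variable genes between rat strains. RT1-A2 had signals of 655, 319, 529.8 and 654 and, at -1.49, lay furthest down of all 10398 genes; the control HF array alone was low. RT1-A3 had signals of 627, 918, 642 and 482 and a difference of 0.65. RT1-A1 had signals of 929, 1350.1, 1058 and 889.6 and a difference of 0.62. For RT1-A1 and RT1-A3 the control HF array alone was high, and the FR30 pair ran the other way for all 3 genes, at 0.40, -0.57 and -0.32 for RT1-A2, RT1-A3 and RT1-A1.

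These 3 genes are near-copies that lie close together on chromosome 20, as their promoters show. The sequences are from RefSeq, build GRCr8, plus strand, from 250 bases before to 50 bases after the gene start, at chr20:4906959-4907258 for RT1-A1, chr20:4872621-4872920 for RT1-A2 and chr20:4849201-4849500 for RT1-A3. Capitals mark CCAAT on either strand, a letter string read by the factor NF-Y, and TATAAA on either strand, the core of the TATA box.
RT1-A1: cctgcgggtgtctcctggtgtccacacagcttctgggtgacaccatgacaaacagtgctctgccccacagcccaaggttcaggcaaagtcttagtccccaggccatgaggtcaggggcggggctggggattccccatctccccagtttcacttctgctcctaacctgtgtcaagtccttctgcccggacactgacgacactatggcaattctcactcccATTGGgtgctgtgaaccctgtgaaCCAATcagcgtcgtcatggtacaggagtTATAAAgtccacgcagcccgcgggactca
RT1-A2: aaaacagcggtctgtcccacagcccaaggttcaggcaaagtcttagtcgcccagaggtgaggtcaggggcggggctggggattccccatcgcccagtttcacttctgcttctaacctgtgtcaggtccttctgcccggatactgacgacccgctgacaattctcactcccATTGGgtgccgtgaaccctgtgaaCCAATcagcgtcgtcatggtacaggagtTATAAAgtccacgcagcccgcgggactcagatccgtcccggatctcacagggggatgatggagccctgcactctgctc
RT1-A3: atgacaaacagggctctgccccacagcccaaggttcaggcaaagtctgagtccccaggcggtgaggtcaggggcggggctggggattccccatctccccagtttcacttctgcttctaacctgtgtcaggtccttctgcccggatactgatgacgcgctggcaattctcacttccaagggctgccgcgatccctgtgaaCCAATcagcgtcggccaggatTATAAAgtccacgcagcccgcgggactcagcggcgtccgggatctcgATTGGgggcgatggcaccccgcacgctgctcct
RT1-A1 and RT1-A2 were identical at 92.4% of 251 aligned columns and shared a run of 71 bases, and RT1-A2 and RT1-A3 were identical at 86.3% of 300 columns with a shared run of 54 bases. Each held CCAAT at 2 places and TATAAA at 1, but not in the same layout. In RT1-A3 the second CCAAT match lay after TATAAA and after the gene start used here. In RT1-A1 TATAAA itself lay after that start. Over 33469 promoters of this length, 37.5% held CCAAT and 14.2% held TATAAA. Whether the array's probes tell the 3 genes, or their alleles, apart was not tested, since the probe sequences were not used here.

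The whole list of interferon and antigen-presentation genes, these 3 included, showed no common direction. Of 35 detected, 19 were higher and 16 lower, with a median of 0.01, and RT1-A1, RT1-A2 and RT1-A3 were the only ones past 1.5-fold. Ifi47, an interferon-induced GTPase, had signals of 227, 268, 237 and 203 and a difference of 0.51. The antiviral GTPase Mx1 was at -0.39 and the immunoproteasome subunit Psmb8 at -0.42. Of 17 complement and acute-phase genes 8 were higher and 9 lower (median -0.01).

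Among the lower genes were several of signalling, synapses and the cell surface. Akr1c12, an aldo-keto reductase of the family that reduces steroids and prostaglandins, had signals of 266, 196, 265 and 229 and a difference of -1.09. On the authors' scale that difference was -0.44. Further probes of Akr1c12, not detected in both arrays, differed by -0.01 and 0.15. Itga1, the alpha chain of a collagen-binding integrin, had signals of 283, 210.0, 232 and 218 and a difference of -0.97, with control standard standing high alone. Nmbr, the receptor of neuromedin B, had signals of 299, 221, 251 and 231 and a difference of -0.93. In Nmbr too the control standard array was the high one, and the FR30 arrays lay closer to control HF.

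Pacsin1, a membrane-bending protein of synaptic vesicle recycling, had signals of 486, 321, 349 and 341 and a difference of -0.91. Pde4d, a phosphodiesterase that breaks down cAMP, had signals of 289.9, 217, 213 and 221 and a difference of -0.90. In both, control standard was high and the other 3 arrays lay close together. Adgrb1, an adhesion receptor of neurons and glia also known as Bai1, had signals of 574, 371, 759.8 and 587 and a difference of -0.89; it was low on control HF alone. Hycc2, of a complex that makes phosphatidylinositol 4-phosphate at the plasma membrane, had signals of 650.2, 421, 404 and 421 and a difference of -0.85, again with control standard alone high.

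Of the brighter lower genes, Dusp3, a phosphatase that acts on MAP kinases, had signals of 1791, 1208, 1139 and 1286 and a difference of -0.60. RGD1564247 had signals of 1155, 677, 930.2 and 855 and a difference of -0.91, and a second detected probe of it differed by -0.83. The nuclear receptor Rora had signals of 1194, 726, 880.1 and 781 and a difference of -0.84, and protein kinase C delta, Prkcd, signals of 1145, 805, 1240.1 and 1180.5 and a difference of -0.60. Rora and Prkcd are strongly expressed in thalamic neurons and stood in the thalamus list described below. Rps9, a protein of the small ribosomal subunit, had signals of 3653, 2329, 1098 and 4114 and a difference of -0.62, and RGD1564649 had signals of 2711, 1509, 266 and 3148 and a difference of -0.92. For both of these the FR30 standard array was far below the other 3. A second detected probe of Rps9 differed by -0.94 between the control arrays.

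The other lower genes were spread over many functions. Shox2, Ramp3 and Ptpn3 among them also stood in the thalamus list described below, and Slc47a1 and Aldh1a2 in the meninges list. The homeobox gene Shox2 was at -0.83, Shisa3, an antagonist of Wnt and FGF receptors, at -0.81, the microtubule-binding Eml5 at -0.79, the Ras inhibitor Spred1 at -0.75 and the organic cation exporter Slc47a1 at -0.75. Enpp6, a choline phosphodiesterase of young oligodendrocytes, was at -0.72 and low on both HF arrays, but it was not detected in every FR30 array. Tspyl5 (-0.70) was also low on both HF arrays, Vwc2l was at -0.70 and the receptor-modifying Ramp3 at -0.70. Matrix proteins and their enzymes were Adamts2, which trims procollagen (-0.66), Cpxm2 (-0.65) and fibulin 1, Fbln1 (-0.59). Aldh1a2, which makes retinoic acid, was at -0.63, Mgll, which breaks down the endocannabinoid 2-AG, at -0.61, and the NMDA receptor subunit Grin2a at -0.61. The cytoskeletal and small GTPase regulators Actn1, Fign and Arhgef12 were at -0.63, -0.63 and -0.62, the phosphatase Ptpn3 at -0.63, the silencing and elongation factors Tnrc6b and Aff4 both at -0.63, and Gpr137c at -0.62. Genes known only by a clone or locus name were also among them: LOC499553 (-1.07), RGD1566136 (-1.03), Vof21 (-0.74), LOC499521 (-0.72), Vof16 (-0.64), RGD1562481 (-0.61), LOC300760 (-0.59) and LOC498057 (-0.59).

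**Figure D2:**
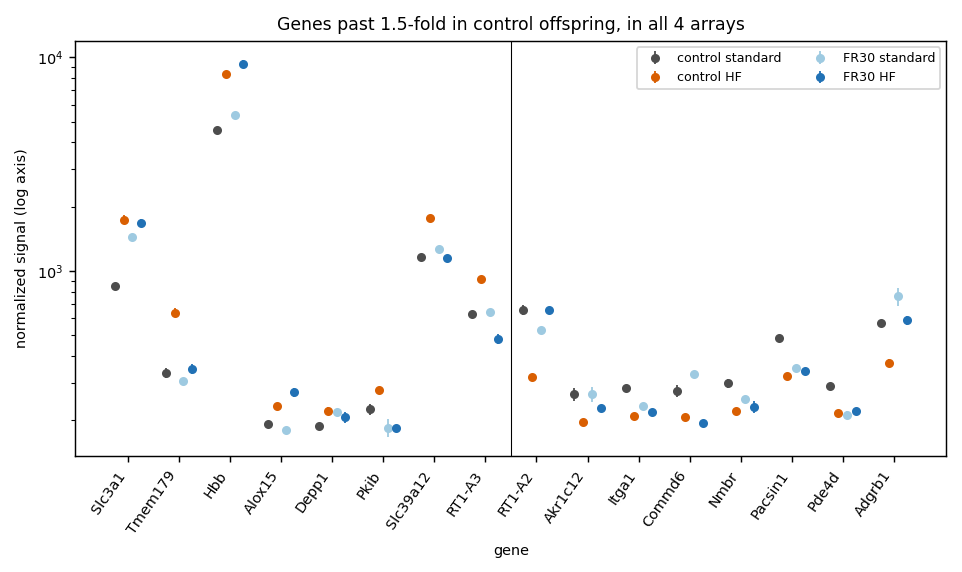
Normalized signal (log axis) of 16 genes past 1.5-fold in control offspring, 8 higher and 8 lower on the HF diet, in each of the 4 arrays; bars are the SDs the authors deposited. Slc3a1 is low on control standard alone, Tmem179 and Slc39a12 high on control HF alone, and Pacsin1, Pde4d and Itga1 high on control standard alone.

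Which of the 4 arrays stood apart was read from the widest gap between the ordered values of each gene. Of the 46 lower genes, control standard was high alone for 26 (56.5%), control HF was low alone for 13 (28.3%) and both HF arrays were low for 3 (6.52%). Over all 4760 genes that were lower by any amount, the shares were 21.3%, 19.9% and 6.85%. Of the 15 higher genes, control standard was low alone for 5 (33.3%), control HF high alone for 4 (26.7%) and both HF arrays high for 3 (20%), namely Hbb, MGC72973 and Alox15. Over all 5597 higher genes the shares were 27.3%, 17.2% and 7.49%. The genes were chosen for a gap between the 2 control arrays, which favours such patterns, so these counts are a description.

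The meninges and fibroblast genes formed the list furthest from the rest. Of 25 on the array 22 were detected, and 21 of these were lower and 1 higher on the HF diet, with a median of -0.40 against 0.01 over all genes. Slc47a1 (-0.75) and Aldh1a2 (-0.63) passed 1.5-fold. Control HF was the lowest of the 4 arrays for 19 of the 22, against 23.2% of all genes, and the summed signal of the list was 47767, 37320, 52332 and 54140. The same genes had a median of -0.03 between the FR30 arrays, with 10 higher and 12 lower. Under the authors' normalization the control median was -0.24.

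Collagens and other matrix genes made up much of this list. Col1a2, a chain of type I collagen, had signals of 3662, 2641, 3509 and 3310.5 and a difference of -0.44. Col3a1, type III collagen, had signals of 277, 233, 263 and 261 and a difference of -0.53, whereas Col1a1 was at -0.16. Among the small proteoglycans, Ogn was at -0.55, Dcn at -0.45 and Lum at -0.41, and Fmod, at 0.05, was the 1 member on the other side. For both Col1a2 and Col3a1 control HF was the lowest of the 4 arrays. Mgp, an inhibitor of calcification made by fibroblasts and vessel walls, was at -0.58, and the growth factor Igf2 and its binding protein Igfbp2, both made in the meninges, at -0.38 and -0.53. Ptgds, which makes prostaglandin D2 and is abundant in leptomeninges, had signals of 27383, 21437, 30969 and 33267 and a difference of -0.27, the largest drop of any gene on the linear scale of the normalized signal. Bgn, Col6a2 and Pcolce were not detected in both arrays.

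The Col1a2 promoter (RefSeq, build GRCr8, chr4:33518307-33518606, plus strand), shown because type I collagen is the best-known product of these cells, held CCAAT at 1 place and TATAAA at 1, in capitals.
Col1a2: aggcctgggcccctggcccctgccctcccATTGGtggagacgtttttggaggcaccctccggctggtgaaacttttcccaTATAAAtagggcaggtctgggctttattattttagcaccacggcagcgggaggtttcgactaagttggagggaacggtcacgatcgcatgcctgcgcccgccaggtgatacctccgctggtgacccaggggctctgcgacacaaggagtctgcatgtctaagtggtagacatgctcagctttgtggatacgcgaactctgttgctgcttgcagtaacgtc
A match to either string is a description of the letters and not of a bound factor.

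Earlier results of these data had already named 5 members of the list, Ogn, Col3a1, Igfbp2, Slc22a2 and Slc47a1. Without them the median was -0.27, and 16 of the 17 left were lower. The 15 members with a mean signal of at least 300 had a median of -0.38, and 14 of them were lower. Matrix receptors and basement membrane genes of a separate list leaned the same way to a lesser degree: of 34 detected, 11 were higher and 23 lower, with a median of -0.07. In it Itga1 alone passed 1.5-fold, and the protease inhibitor Timp2 was at -0.48 and the basement membrane protein Nid1 at -0.46. The part that the amount of meninges in each dissected piece had in these values was not tested.

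**Figure D3:**
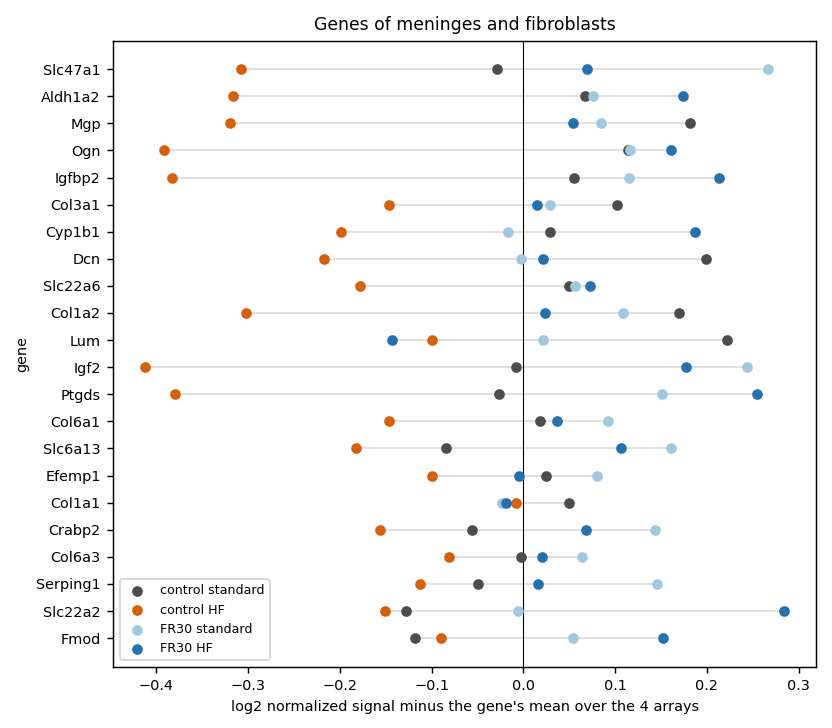
For the 22 detected genes of meninges and fibroblasts, ordered by their difference in control offspring, each point is the log2 normalized signal of 1 array minus the mean of that gene over the 4 arrays. Control HF is in orange. On the background-corrected, quantile-normalized values, which are not the ones plotted, it was the lowest array for 19 of the 22 genes.

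Markers of other neighbouring tissue and of other cells moved by differing amounts. Thalamus genes were lower: 19 of 22, with 5 past 1.5-fold and a median of -0.36, and in the FR30 pair 19 of 21 were lower with a median of -0.17. Those 5 were Rora, Shox2, Ramp3, Ptpn3 and Prkcd. Choroid plexus genes had a median of -0.12 over 9 detected members, and -0.04 under the authors' normalization. Microglia and inflammation genes were higher for 20 of 23 (median 0.12), with none past 1.5-fold. Telencephalon genes (19 detected, median -0.03), midbrain dopamine genes (9, median 0.00) and endothelium and pericyte genes (19, median 0.02) lay near 0, although Abcg2, a drug efflux pump of brain capillaries, was at 0.54. Of the 61 genes past 1.5-fold, 9 (14.8%) stood in a list of neighbouring tissue, blood or microglia, 1 higher and 8 lower, against 122 (1.17%) of all 10398 genes. The other 52 stood in none of these lists, 14 higher and 38 lower, and MGC72973, which ran beside Hbb, was among them. The lists hold only a few markers of each tissue. The part of these sources in the differences was not tested. The lists were written with earlier results of these data known, which favours such an overlap, so the 14.8% and the 1.17% are a description.

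Some pituitary and choroid plexus products were detected in only 1 control array. Prl, prolactin, had signals of 759, 159, 313 and 240.5, a log2 difference of -2.25 between the deposited values of the control arrays. After background correction it was at least 12.7-fold lower on the HF diet, where it was not above background; this and the bounds that follow are on that scale, which widens differences of dim probes. Ttr, transthyretin of the choroid plexus, had signals of 523, 183, 209 and 1251, a log2 difference of -1.52 between the deposited control values, and was at least 7.90-fold lower; FR30 HF was its highest array. Lhb, the beta chain of luteinizing hormone, was at least 1.63-fold lower and RGD1309310 at least 1.67-fold. Of the anterior pituitary list, 9 genes were detected on the standard diet and 7 on the HF diet. Of 7 anterior pituitary genes detected in both control arrays 4 were higher and 2 lower (median 0.00). Of 7 of the posterior pituitary and pars tuberalis 5 were higher and 2 lower (median 0.03). Genes that fell below detection on the HF diet, such as Prl and Lhb, cannot be among these, so these medians do not bear on them. Mrps10 was at least 1.45-fold lower. On the other side, Apoa5 was at least 1.53-fold higher, Ahsp, which stabilizes free alpha globin, at least 1.37-fold, and Hba-a3 and Cxcl9 at least 1.35-fold, while Pth2 had no bound above 1. In all 483 genes were detected in only 1 of the control arrays, 405 on the HF diet and 78 on the standard diet, and the bound reached 1.5-fold for 7.

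**Figure D4:**
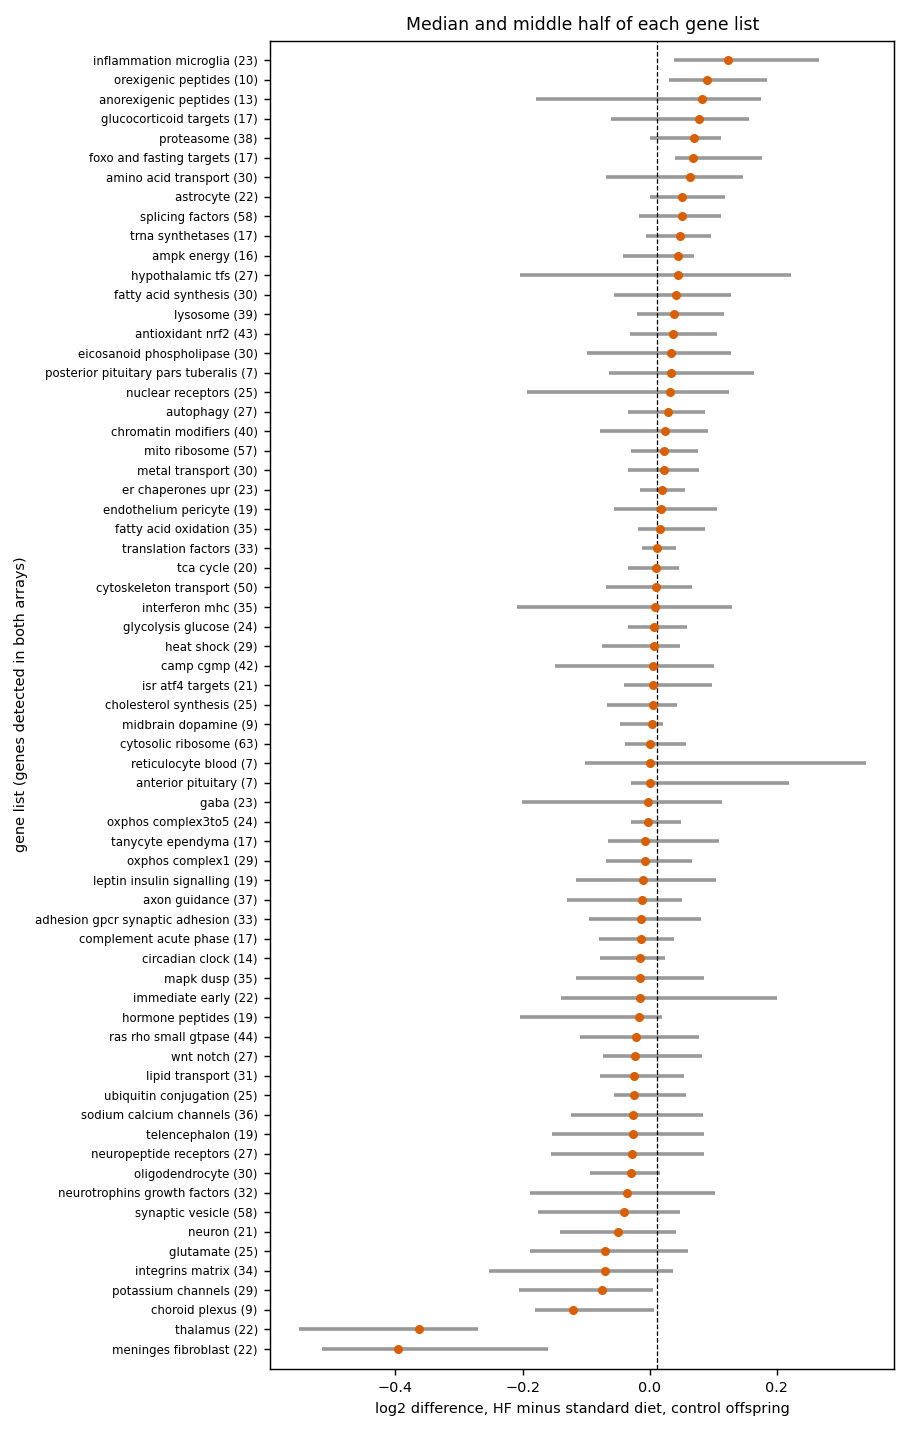
Median log2 difference (orange point) and the range from the 25th to the 75th percentile (grey bar) of each gene list with at least 5 genes detected in both control arrays, the number detected standing in brackets; the dashed line is the median of all genes. Meninges and thalamus lie at -0.40 and -0.36, and apart from choroid plexus (-0.12) and microglia (0.12) every list median shown is within 0.1 of 0.

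The peptides that drive or restrain eating differed little. Of 10 detected orexigenic peptide genes 8 were higher and 2 lower (median 0.09), and of 13 anorexigenic ones 8 were higher and 5 lower (median 0.08), with none past 1.5-fold. Agrp had signals of 714, 799, 747 and 816 and a difference of 0.19. Npy had signals of 1572, 1676, 1584 and 1708 and a difference of 0.09, with deposited SDs of 93.8 and 76.6 on the control arrays. Orexin, Hcrt, was at 0.22 and melanin-concentrating hormone, Pmch, at 0.03. On the restraining side, Pomc had signals of 2029, 2368, 2318 and 3497 and a difference of 0.24, and Cartpt was at 0.12. All 4 arcuate peptides were thus on the higher side, Npy by about its deposited SD, and Pomc was also higher on the HF diet in the FR30 pair (0.55). Npvf, an RFamide peptide of the dorsomedial nucleus, was at 0.43, neuromedin U, Nmu, at 0.30, Sst at -0.28, Cck at -0.25 and Nts at -0.23.

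Receptor genes were more often lower and secretory genes were divided. Of 27 detected neuropeptide receptor genes 10 were higher and 17 lower (median -0.03), Nmbr and Ramp3 being past 1.5-fold. Ramp3 stood in the thalamus list too. The melanocortin receptors Mc4r and Mc3r were at -0.08 and 0.15, and the orexin receptor Hcrtr1 at 0.24. Of 19 genes of hormones and their processing, 7 were higher and 11 lower (median -0.02). Oxytocin, Oxt, had signals of 10024, 7723, 8656 and 8197 and a difference of -0.42, with control standard the highest array. Vgf, a precursor of secreted peptides, was at -0.35 and Pcsk1n, an inhibitor of a prohormone convertase, at -0.34, while the granins Scg2 and Chga were at 0.08 and 0.04 and the processing enzymes Pam and Cpe at -0.07 and 0.01. Vasopressin, Avp, was at -0.01. Corticotropin-releasing hormone, Crh, was at -0.28 and thyrotropin-releasing hormone, Trh, at -0.11.

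Signalling downstream of leptin and insulin stayed near the median of all genes. Of 19 detected genes 8 were higher and 11 lower (median -0.01), from Grb2 at -0.31 and Pik3cb at -0.30 to Tsc2 at 0.20. Ptpn1, the phosphatase that dampens both receptors, had signals of 495, 535, 498 and 515 and a difference of 0.15. The insulin receptor Insr and the leptin-induced inhibitor Socs3 were not detected in both arrays. Of 16 genes of AMP kinase and energy sensing 11 were higher (median 0.05), with the carnitine palmitoyltransferases Cpt1c and Cpt1a at 0.20 and 0.13.

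Targets of FOXO factors and of fasting leaned upward by small amounts. Of 17 detected 14 were higher and 3 lower (median 0.07), and Depp1 alone passed 1.5-fold. Angptl4, an inhibitor of lipoprotein lipase, was at 0.27, Pdk4, which turns off pyruvate oxidation, at 0.16, and the glucose-sensitive Txnip at -0.21. Cdkn1b, an inhibitor of cell division, had signals of 741, 550.4, 533 and 559 and, at -0.53, was the lowest of them. Its control standard array was high and the other 3 lay close together. The same 17 genes had a median of 0.08 in the FR30 pair.

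Glucocorticoid targets were divided. Of 17 detected 10 were higher and 7 lower (median 0.08). Sgk1, a kinase induced by glucocorticoids, had signals of 2045, 2629, 3392 and 3840.1 and a difference of 0.38, with control standard the lowest of the 4 arrays. Nfkbia, the inhibitor of NF-kB, had signals of 985, 1244, 1294 and 1315 and a difference of 0.37, and the clock and stress gene Per1 was at 0.32; in both, control standard was again the lowest array. Fkbp5, a widely used marker of glucocorticoid action, was at -0.08 and Klf9 at -0.08. No gene of the list passed 1.5-fold.

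Activity-induced and clock genes showed no common direction. Of 22 immediate early genes 11 were higher and 11 lower (median -0.02), from Ier5 (-0.43) to Per1 (0.32), and the growth factor Bdnf was at 0.28. Of 14 clock genes 6 were higher and 8 lower (median -0.02), with Bmal1 at -0.12, Bhlhe40 at 0.23 and Nfil3 at 0.18, and Rora was the member past 1.5-fold.

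Genes of glucose use and of the mitochondrion lay close to 0. Glycolysis genes were 12 higher and 12 lower of 24 (median 0.01), genes of the citric acid cycle 11 higher and 9 lower of 20 (median 0.01), and complex I genes 13 higher and 16 lower of 29 (median -0.01). The exception in size was Pfkl, the liver type of phosphofructokinase, with signals of 1147, 851, 1155 and 1026 and a difference of -0.52; control HF was its lowest array. Gapdh was at 0.18 and Pdk2, which inhibits pyruvate dehydrogenase, at 0.22. No gene of these 3 lists passed 1.5-fold.

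Lipid genes gave single differences rather than a shift of the group. Fatty acid oxidation genes were 23 higher and 11 lower of 35 (median 0.02), with the carnitine carrier Slc25a20 at 0.22 and Acat1 at -0.19. Genes of fatty acid and glyceride synthesis and breakdown were 20 higher and 9 lower of 30 (median 0.04), with the hormone-sensitive lipase Lipe at 0.23, Fads2 at 0.16 and Mgll the member past 1.5-fold. Mgll had signals of 503, 373, 401 and 360.4, control standard being the high array. Cholesterol synthesis genes were 14 higher and 11 lower of 25 (median 0.00), from Hsd17b7 (-0.36) to Srebf2, the factor that turns the pathway on, which had signals of 196, 216, 197 and 187 and a difference of 0.42. Of 31 lipid transport genes 12 were higher and 19 lower (median -0.03). The fatty acid receptor Cd36 had signals of 271, 324, 328 and 288 and a difference of 0.48, and the lipoprotein receptor Scarb1 was at 0.32.

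In eicosanoid metabolism 19 of 30 genes were higher and 11 lower (median 0.03). The 3 past 1.5-fold were Alox15 on the higher side and Akr1c12 and Mgll on the lower. The prostaglandin synthase Ptgs2 was at 0.23, the 5-lipoxygenase partner Alox5ap at 0.23 and the phospholipase Pla2g5 at -0.29.

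Protein turnover and stress genes were nearly level. Proteasome genes were 28 higher and 9 lower of 38 (median 0.07), with Psmd5, a chaperone of proteasome assembly, at 0.47 and the regulatory subunit Psmd1 at 0.24. Lysosome genes were 25 higher and 14 lower of 39 (median 0.04), with acid glucosidase, Gaa, at 0.26 and the cathepsins Ctsh and Ctss at 0.24 and 0.22. Autophagy genes were 19 higher and 8 lower of 27 (median 0.03), and antioxidant genes 27 higher and 15 lower of 43 (median 0.04), where Gstm2, a glutathione transferase, was at -0.54. The heat shock protein Hspb1 was at -0.40 and Nupr1, a stress-induced chromatin protein, at -0.47.

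Cytosolic ribosome genes had a median of 0.00 over 63 detected members, and Rps9 was the 1 past 1.5-fold. Mitochondrial ribosome genes were 36 higher and 21 lower of 57 (median 0.02), and splicing factors 40 higher and 18 lower of 58 (median 0.05). Among 17 aminoacyl-tRNA synthetases 12 were higher, and Eprs1, which charges glutamate and proline tRNAs, had signals of 1324, 1684, 1092 and 1365 and a difference of 0.37. It was higher on the HF diet in the FR30 pair too, at 0.35.

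Several lists of synapses and excitability held more lower than higher genes, by small amounts. Synaptic vesicle genes were 23 higher and 35 lower of 58 (median -0.04), potassium channel genes 8 higher and 21 lower of 29 (median -0.07), glutamate receptor and synapse genes 11 higher and 14 lower of 25 (median -0.07), and general neuronal genes 8 higher and 13 lower of 21 (median -0.05). Sodium and calcium channel genes were 17 higher and 19 lower of 36 (median -0.03, and 0.01 at detection p under 0.05). Under the authors' normalization the potassium channel and glutamate medians were -0.04 and -0.03. Pacsin1 and Grin2a passed 1.5-fold. The active-zone organizer Rims1 had signals of 691, 531, 606 and 532 and a difference of -0.49, and the endocytic adaptor Epn1 was at -0.48. Grin2a had signals of 426, 326, 335 and 296, with control standard the high array, and its relative Grin2b was at -0.44, while the presynaptic glutamate receptor Grm2 was at 0.39.

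Of the GABA genes 11 were higher and 12 lower of 23 (median 0.00). The receptor subunit Gabrb2 lay just outside the threshold at -0.58, with signals of 455, 347, 325 and 330.0, and the subunit Gabrd, found outside synapses, was at -0.48. The GABA-making enzyme Gad2 had signals of 1357, 1049, 936 and 821 and a difference of -0.40. For Gabrb2 and Gad2 control standard was the highest array, whereas for Gabrd control HF was the lowest. Slc6a11, a GABA transporter of glia, was at 0.33.

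Second-messenger genes included several of the furthest ones without a common direction. Of 42 cAMP and cGMP genes 21 were higher and 21 lower (median 0.01), with Pde4d and Pkib past 1.5-fold on opposite sides, and the adenylyl cyclase Adcy9 had signals of 952, 709.6, 798 and 698 and a difference of -0.50. Of 35 MAP kinase pathway genes 16 were higher and 19 lower (median -0.02). There the inhibitors Spred1, Dusp3 and Dusp8 were at -0.75, -0.60 and -0.51, and Spry2, an inhibitor of the same pathway, at 0.41. Of 33 adhesion genes 15 were higher and 18 lower (median -0.01). Adgrb1 passed 1.5-fold, and the synaptic adhesion molecule Cadm1 had signals of 1950.1, 1367, 1562 and 1382 and a difference of -0.56, with control standard the highest array.

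Transcription factors of the hypothalamus were 14 higher and 13 lower of 27 (median 0.04), with a wide middle range from -0.20 to 0.22. Rax, a factor of tanycytes and of hypothalamic development, had signals of 199, 225, 224 and 223 and a difference of 0.49. Nkx2-1, which marks the ventral hypothalamus, was at 0.34. On the other side were Tcf7l2, a Wnt effector also strong in the thalamus, at -0.47, and Meis2 at -0.37. Peptides that define the hypothalamus gave strong signals on every array, with Pmch at 38829, 39809.6, 38931 and 39312 and Avp at 18450.4, 18402, 16155 and 16888.

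The medians of astrocyte, oligodendrocyte and tanycyte genes lay near 0, unlike that of the microglia and inflammation genes described above. Astrocyte genes were 16 higher and 5 lower of 22 (median 0.05), with the bicarbonate carrier Slc4a4 at -0.51 and S100b at 0.20, and Gfap had signals of 15621, 14888, 16319.9 and 15108 and a difference of -0.07. Oligodendrocyte genes were 13 higher and 17 lower of 30 (median -0.03), and tanycyte and ependymal genes 8 higher and 9 lower of 17 (median -0.01). Enpp6, at -0.72, was the oligodendrocyte gene past 1.5-fold.

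On the linear scale of the deposited normalized signal, abundant transcripts carried the largest differences. Higher on the HF diet were Hba-a2 by 12249 units (19972 to 32221), LOC499823 by 6871, LOC680876 by 4382, Itih3 by 4225, Hbb by 3791, Meg3 by 2493, Cst3 by 2443 and Atp6v0c by 2436. Among the lower genes the difference was -5946 units for Ptgds, -4098 for Oaz1, -3833 for Sv2b, -2840.1 for Pcsk1n, -2724 for LOC501637, -2616 for RGD1565368, -2553 for Spock2 and -2455 for Magee1. Of these 16 genes, Hbb and LOC499823 passed 1.5-fold on both scales of the log2 difference, and Hba-a2 passed it on the authors' scale (0.69) but not after background correction and quantile normalization (0.55). Spock2, a brain proteoglycan, had signals of 8685, 6132, 6657 and 5949 and a log2 difference of -0.51.

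The FR30 pair shares no array with the control pair and gives the same contrast in prenatally undernourished rats. Of the 56 genes past 1.5-fold in control offspring that were detected in all 4 arrays, 40 (71.4%) had the same sign in the FR30 pair, against 53.3% of 10100 genes. For the 43 lower genes the number was 34, and for the 13 higher genes 6. The share over all lower or all higher genes was not taken, so these counts by direction are a description. Hbb, MGC72973 and Commd6 passed 1.5-fold in both pairs with the same sign, and Rps9 and RGD1564649 with opposite signs. Hbb and MGC72973 had nearly equal differences in each pair and may not be separate results. Rps9 and RGD1564649 had the same order of arrays from low to high and may not be separate results either. Across the 10100 genes, which are not independent replicates, Pearson's r between the 2 differences was 0.0976 and Spearman's correlation 0.119.

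**Figure D5:**
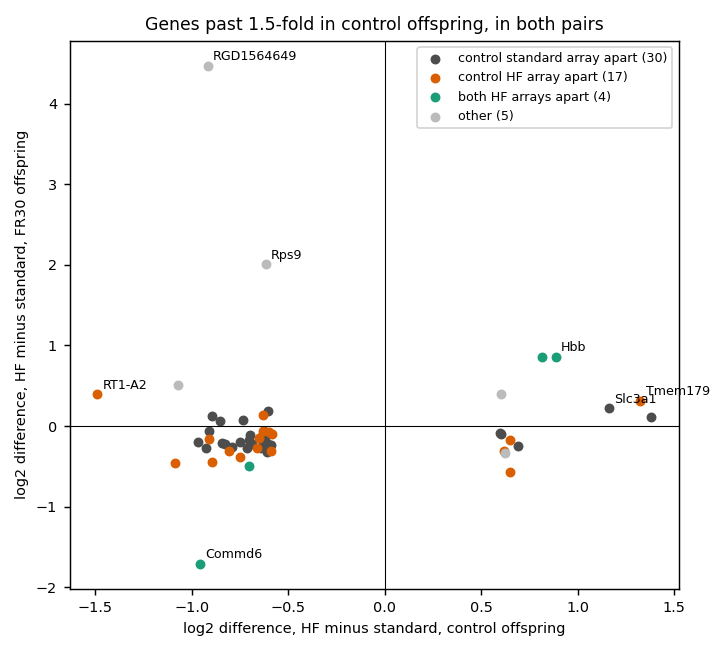
For the 56 genes past 1.5-fold in control offspring and detected in all 4 arrays, the log2 difference (HF minus standard diet) in control offspring is on the horizontal axis and that in FR30 offspring on the vertical axis; colours show which array or arrays stood apart. Most points lie near the horizontal line at 0, with Hbb and Commd6 far out in both pairs and Rps9 and RGD1564649 far out in opposite directions.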

How the data were processed

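Hypothalamic total RNA of 4 groups of rats, 1 array each, was isolated with Trizol and column purification including DNase, then amplified and biotin-labelled, per the labels' protocols. GenomeStudio is the only tool in the submitters' processing notes. Deposited values are a mean bead intensity for each probe and a detection p-value. A second deposited set gives intensity as normalized by the authors, by a method the sources used here do not name, and an SD, per the file headers; a further table repeated it (largest difference 0).

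The log2 values used here were made by neqc of limma 3.58.1 (R 4.3.3) with an offset of 16: background correction by way of the detection p-values, then quantile normalization over the 4 arrays, starting from the non-normalized intensities. It was tested on simulated data with changes planted in bright probes only and at low noise, so the test did not cover dim probes. Each gene was represented by its brightest probe (mean of the 4 arrays) and counted as detected when p is under 0.01 in both control arrays. Of 22523 probes, 10291 held a current RefSeq symbol, 4966 an older one, 1642 a gene number and 5495 a symbol kept as given; 117 without a symbol and 12 with a date in its place were left out. A gene detected in only 1 array has a bound. The threshold was 1.5-fold, with no test. Named were the 15 genes furthest each way, others past 1.5-fold with their value, up to 3 members of each list each way, 5 genes each way detected in only 1 array, the 8 largest linear differences each way, and a fixed set of hypothalamic genes. Further members of the meninges list and a few receptors, kinase pathway and lipid genes named beyond these limits were chosen after their values were seen. The members, the 67 gene lists and these rules were chosen with earlier results of these data known. Alternatives were the authors' normalized intensities, no background correction, the 2 control arrays alone, an offset of 50, detection p under 0.05, the mean of the detected probes and, added after seeing the data, a mean signal of at least 300. The number of arrays limits the precision. Results on some genes withheld for evaluation are not reported here. Promoters came from RefSeq (GRCr8). Figures used matplotlib 3.10.9 (Python 3.11.15).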

Additional observations from a re-analysis of the deposited data

Results flagged for a closer look

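In control and FR30 offspring, 2 genes past 1.5-fold ran in opposite directions under the same diet contrast, each by more than 1.5-fold. Rps9 was at -0.62 log2 in control offspring and 2.01 in FR30 offspring, a difference of 2.62 between the pairs. Its FR30 standard array, at 1098 against 2329 to 4114 on the others, was the low one. RGD1564649 was at -0.92 and 4.47, a difference of 5.39, and its FR30 standard array stood at 266 against 1509 to 3148. With 1 array per group the difference between the pairs was not tested for either gene. Rps9 and RGD1564649 had the same order of arrays from low to high, and whether they are separate results was not tested. Groups of 1 array allow no check for a sample far from its group.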

How the results depend on the processing

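The 61 genes past 1.5-fold (15 higher, 46 lower; 75.4% lower) became 16 (7 and 9; 56.3% lower) with the authors' normalized signals, 15 (6 and 9; 60% lower) with no background correction and 32 (8 and 24) with an offset of 50. Requiring a mean signal of at least 300, chosen after seeing the data, also left 32 (8 and 24). The count was 60 (15 and 45) with the 2 control arrays normalized alone, 75 (22 and 53) at detection p under 0.05 and 61 with the mean of the detected probes. All 61 genes kept their direction under the authors' signals, no background correction, the control arrays alone and the offset of 50. Of the 16 genes past 1.5-fold under the authors' signals, 0 had a mean signal under 250, 5 lay at 250 to 500, 5 at 500 to 2000 and 6 above. The 4 lists whose median was at least 0.1 from 0 were 3 under the authors' signals and without background correction, where choroid plexus moved to -0.04 and -0.05. The meninges median was then -0.24 and -0.25, and the thalamus median -0.25 and -0.27. No paired analysis was possible because each group holds 1 array. Leaving out an array would leave no comparison, and probes near the background carry little information on size.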
